A study of Mus musculus with 31 samples.

Results

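Glycolysis turns glucose into pyruvate and lactate in the cytosol, and its enzymes are among the classic targets of the hypoxia-inducible factors (HIF). When oxygen falls, prolyl hydroxylases no longer mark the HIF alpha subunit for destruction. It then pairs with ARNT, binds DNA at short elements with the core ACGTG or GCGTG, and raises transcription of glycolytic enzymes, of glucose and lactate transporters and of genes for vessel growth, mitophagy and collagen processing. An infarcted heart wall has lost its blood supply, and dendritic cells and macrophages take up glycolysis when they are activated, also where oxygen is plentiful. The genes described here are 35 symbols of these pathways, taken as listed from the 24421 gene rows of each count table: 17 glycolytic enzymes, 3 genes of glucose entry, lactate export and the pyruvate gate (Slc2a1, Slc16a3 and Pdk1), 3 oxygen sensing genes (Hif1a, Egln1 and Egln3) and 12 other targets of hypoxia. All 35 were read well enough to be tested, among 13039 genes. The list was made when earlier results of these data were known. Its counts are therefore not independent of the data, and the shares of all tested genes beside them are descriptions.

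Reads were counted in 31 RNA-seq libraries of cells sorted by flow cytometry from digested hearts of 8 to 12 week old Balb/c mice. The hearts were either in the steady state (SS) or infarcted (MI), the left anterior descending artery having been tied off for good. In each state there were conventional dendritic cells of type 1 (cDC1) and type 2 (cDC2), CD11c-positive monocyte-derived cells (moDC) and CD11c-negative monocyte-derived cells (macrophages), with 4 libraries per group and 3 for MI cDC2. Not given in the sources used here are the time after ligation, the sort antibodies, the sex of the mice and any pooling of hearts. All groups share the enzyme digestion and the sort, so the levels are those of cells taken out of the tissue. Every SS heart and every MI heart may also differ in preparation, which cannot be told apart from infarction. No label ties a library to 1 animal, so p-values measure the spread between libraries, which may be technical. Levels are in CPM, read counts scaled to equal library totals with TMM factors, as mean ± SD with n = 4 (n = 3 for MI cDC2). Values in every library are given in the order of the replicate numbers. Folds come from the fitted model, and an adjusted p is that of edgeR's quasi-likelihood test with Benjamini-Hochberg adjustment over the 13039 genes. A gene was called changed at an adjusted p under 0.05.

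Xcr1, Cd209a and C1qa were highest in the cell type they mark, but not every listed marker was. Xcr1, the cDC1 chemokine receptor, averaged 909.6 CPM in SS cDC1 and 995 in MI cDC1. Cd209a, a marker of cDC2, averaged 2257 and 2393 CPM in cDC2 against 406 and 379 in moDC. The complement gene C1qa, which marks macrophages, averaged 5265 and 3939.7 CPM in macrophages, 2739 and 1631 in moDC, and 477 and 174 in cDC2, in SS and MI in turn. Itgax, the gene of CD11c, averaged 7.50 CPM in SS and 40.9 CPM in MI macrophages, and 337 and 471 in moDC. Going the other way, Sirpa and Tnfrsf11a, listed as cDC2 markers, averaged 826 and 53.3 CPM in SS cDC2 against 1233 and 207 in SS macrophages. Timd4, listed as a macrophage marker, averaged 70.9 CPM in SS macrophages against 220 in SS cDC1. Cd68, listed likewise, averaged 716 CPM in SS macrophages against 850 in SS moDC. Libraries held 9148624 to 16531349 reads in genes. In SS, the libraries numbered 1 and 4 had 11.6% to 16.9% of reads outside annotated features, and those numbered 2 and 3 had 6.42% to 9.26%, against 6.85% to 10.9% in MI.

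The HIF core letters were looked for in the promoters of these genes, in RefSeq windows of GRCm38.p6 that run from 250 bases before to 50 bases after each annotated start. Of 33 genes with a window, 31 (93.9%) held ACGTG or GCGTG on either strand, against 46.7% of the 27025 genes of the table and 66.5% of the 9948 tested genes with a window. A gene with several windows counts here if any of them matches. By window, 38 of 48 (79.2%) held a match, against 43.8% of all 32851 windows. The genes were listed as parts of these pathways, so the higher share was not read as a result. All 10 hypoxia targets with a window held a match, and Gpi1 and Tpi1 held none. Bnip3l and Ndrg1 have no entry. The windows of the genes are slightly richer in CpG, with a median of 22 per window against 20 for tested genes. A match is a run of letters and was not read as a bound site. The 250 bases before the start are printed, 5′ to 3′ on the gene's strand, for 2 genes called after MI in 3 cell types, Ero1l and Bnip3, and 2 called in 2, Hif1a and Pgam1. Hk3 was also called in 2, with a larger adjusted p, and its window, which holds 1 match, is not printed. Capitals mark ACGTG or GCGTG on either strand, so that a match on the other strand reads CACGT or CACGC. These stretches lie at chr14:45318573-45318822 (minus) for Ero1l, an oxidase of the endoplasmic reticulum, listed by RefSeq as Ero1a, at chr7:138909507-138909756 (minus) for Bnip3, a mitophagy receptor, at chr12:73907617-73907866 (plus) for Hif1a, and at chr19:41911621-41911870 (plus) for Pgam1, the glycolytic phosphoglycerate mutase.
Ero1l: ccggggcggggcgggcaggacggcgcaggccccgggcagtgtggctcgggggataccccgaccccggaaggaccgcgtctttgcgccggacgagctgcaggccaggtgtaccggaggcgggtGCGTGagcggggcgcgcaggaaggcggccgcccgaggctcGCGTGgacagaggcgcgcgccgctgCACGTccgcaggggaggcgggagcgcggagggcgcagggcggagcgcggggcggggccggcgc
Bnip3: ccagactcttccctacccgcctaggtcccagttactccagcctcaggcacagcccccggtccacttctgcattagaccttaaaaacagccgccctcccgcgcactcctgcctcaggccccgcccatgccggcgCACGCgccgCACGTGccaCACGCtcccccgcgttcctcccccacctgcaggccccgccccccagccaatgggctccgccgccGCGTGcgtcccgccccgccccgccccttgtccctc
Hif1a: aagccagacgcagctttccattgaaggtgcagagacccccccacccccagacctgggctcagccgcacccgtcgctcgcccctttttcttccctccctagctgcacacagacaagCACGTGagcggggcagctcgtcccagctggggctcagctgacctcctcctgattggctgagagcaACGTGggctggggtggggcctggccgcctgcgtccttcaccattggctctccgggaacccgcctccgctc
Pgam1: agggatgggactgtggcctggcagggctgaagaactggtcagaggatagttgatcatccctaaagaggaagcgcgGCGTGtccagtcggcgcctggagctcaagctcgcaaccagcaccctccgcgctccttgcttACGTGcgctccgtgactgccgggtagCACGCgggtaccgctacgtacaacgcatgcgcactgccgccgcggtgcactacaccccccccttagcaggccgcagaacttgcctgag
Ero1l, Hif1a and Pgam1 each hold 3 matches and Bnip3 holds 5, where the palindrome CACGTG counts once on each strand. Such a palindrome occurs once in the Bnip3 and once in the Hif1a window.

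In macrophages, 15 of the 35 genes rose after MI and 2 fell. Of the 17 glycolytic enzymes 9 rose and 2 fell, and of the 12 hypoxia targets 4 rose. Of all tested genes 7.39% were called in this comparison, 4.01% up and 3.37% down. The targets Vegfa and Ndrg1 rose most, Hif1a and Ero1l each rose 2.00-fold, and the 9 enzymes rose by 1.31-fold to 2.28-fold. In 14 genes all MI libraries lay above all SS libraries, and in 1 all lay below. How many of all tested genes separate in this way was not counted, so these numbers are descriptions only. The median log2 change was 0.39 over the 35 genes and -0.03 over all tested genes. In bulk samples, a change in how many cells of a sort carry a transcript and a change in transcript per cell cannot be told apart.

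**Figure D1:**
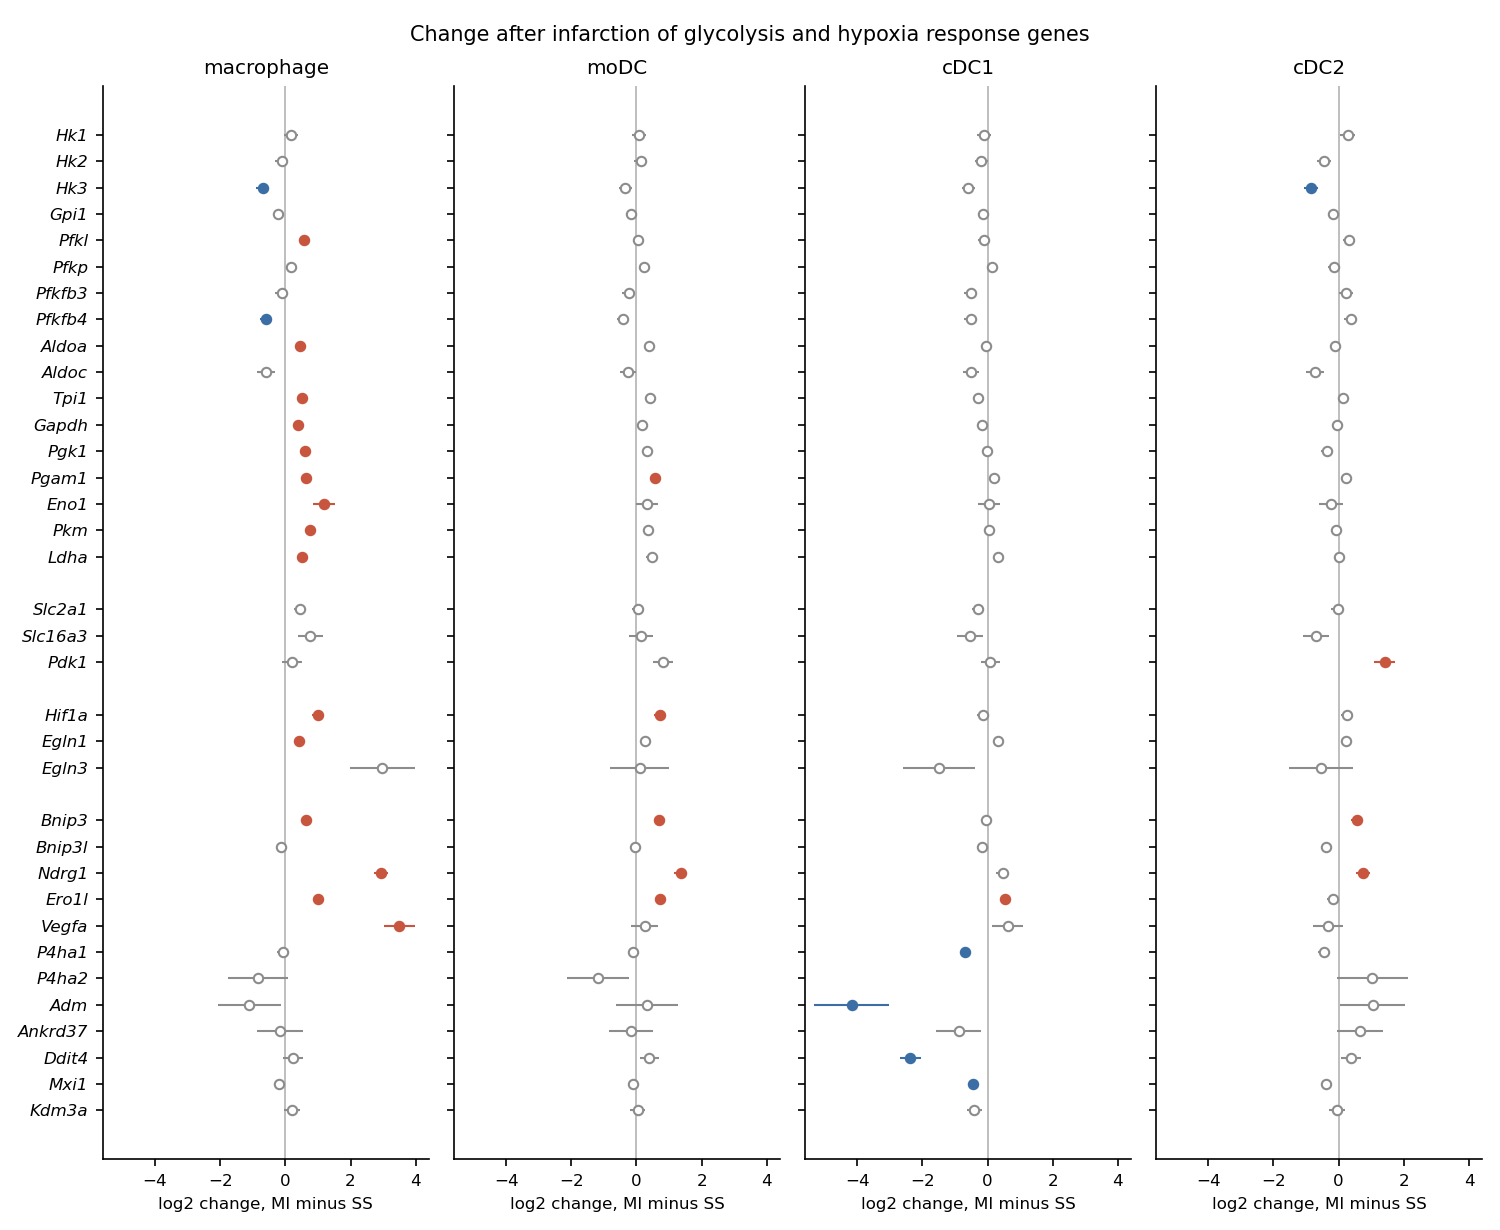
Log2 change, MI minus SS, with its standard error for each of the 35 genes (rows) in macrophages, moDC, cDC1 and cDC2 (panels). Filled points passed an adjusted p of 0.05 (red higher in MI, blue lower), open points did not, and P4ha2 in cDC1 is left out because MI cDC1 held no read of it. Macrophages have 15 red and 2 blue points, moDC 5 red, cDC1 1 red and 5 blue (with P4ha2), and cDC2 3 red and 1 blue.

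Of the enzymes, Pkm and Pgam1 passed with the smallest adjusted p in macrophages. Pkm, pyruvate kinase (chr9:59656368-59679375, plus strand), stood at 465, 493, 487 and 512 CPM in the SS libraries and at 767, 987, 721 and 802 CPM in the MI libraries. Every MI library was above every SS library, and the rise was 1.68-fold (log2 0.74, SE 0.13, adjusted p = 3.31e-04). Pgam1, the mutase named above, stood at 183, 244, 244 and 184 CPM in SS and 315, 393, 295 and 323 CPM in MI. Here too the groups did not overlap, with a rise of 1.55-fold (log2 0.63, SE 0.14, adjusted p = 0.00399). Tpi1, triosephosphate isomerase, stood at 208, 223, 243 and 189 CPM in SS and 287, 389.9, 279 and 281 CPM in MI. It rose 1.43-fold (adjusted p = 0.00874) with no overlap, and MI replicate 2 was far above the other MI libraries. Pgk1, phosphoglycerate kinase, rose 1.52-fold (90.9 ± 17.7 to 138 ± 33.1 CPM, adjusted p = 0.0141) with overlapping groups. Pfkl, the liver-type subunit of phosphofructokinase, rose 1.50-fold (adjusted p = 0.0181), the aldolase Aldoa 1.37-fold (0.0227), Gapdh 1.31-fold (0.0231) and the lactate dehydrogenase subunit Ldha 1.43-fold (0.0485).

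The enolase Eno1 rose 2.28-fold in macrophages, from 4.80 ± 0.965 to 11.0 ± 5.33 CPM (adjusted p = 0.0246). That row is a small part of the enolase signal, because the near-identical copy Eno1b holds most of the reads and the Eno1 row held 4.15% of the reads of both in SS and 6.39% in MI macrophages. Summed over both rows, the level was 116 ± 7.35 CPM in SS and 169 ± 25.0 CPM in MI, a rise of 1.46-fold (adjusted p = 0.0238). Gapdh and Pgk1 also have near-identical copies in the mouse genome, so their counts are uncertain to the extent that reads were split or lost between copies. The library kit does not mark strand, and the spans of Tpi1 (with Spsb2), Gapdh (with Iffo1), Aldoa (with Fam57b), Pfkp (with Pitrm1), Hk3 (with Unc5a), Hk1, Hk2, Gpi1, Pfkfb3, Slc2a1, Hif1a, Bnip3, Ndrg1, Adm, Mxi1 and Ankrd37 overlap genes on the other strand, from which reads of the overlap cannot be told apart.

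Not every step rose in macrophages. Hk3, a hexokinase of myeloid cells, fell 1.61-fold, from 88.6 ± 19.9 to 54.9 ± 13.6 CPM (adjusted p = 0.0307), with overlapping groups. Pfkfb4, one of the enzymes that set the level of the phosphofructokinase activator, fell 1.51-fold, from 158 ± 20.2 to 104 ± 14.3 CPM (adjusted p = 0.0368), and all MI libraries lay below all SS libraries. Hk1, Hk2, Gpi1, Pfkp, Pfkfb3 and Aldoc did not pass, with log2 changes between -0.60 and 0.18. None of the 3 transport and gate genes passed: the glucose transporter Slc2a1 averaged 52.2 CPM in SS and 71.7 in MI (adjusted p = 0.152), the lactate exporter Slc16a3 44.2 and 75.2 (0.259), and Pdk1, the kinase that shuts pyruvate out of mitochondrial oxidation, 10.4 and 12.0 (0.790). At an unadjusted p under 0.05 edgeR gave 1 of the 3, and DESeq2 called none.

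Of the oxygen sensing genes, Hif1a (chr12:73901375-73947530, plus strand) codes for the oxygen-regulated subunit of HIF. It stood at 112, 111, 155 and 138 CPM in SS macrophages and at 233, 329, 274 and 198 CPM in MI macrophages. The groups did not overlap, and the log2 change was 1.00 (SE 0.18, adjusted p = 2.61e-04). Egln1, a prolyl hydroxylase that marks HIF alpha, rose 1.34-fold (64.4 ± 5.13 to 86.0 ± 12.4 CPM, adjusted p = 0.0451) with overlap. Egln3, another such hydroxylase, is a sparse gene with 0.286, 0.490, 0 and 1.16 CPM in SS and 4.04, 5.20, 2.27 and 4.11 CPM in MI macrophages. Its groups did not overlap, but the difference missed the threshold (adjusted p = 0.0626).

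Among the 12 hypoxia targets, 4 rose and 8 did not pass in macrophages. Ndrg1 (chr15:66929318-66969640, minus strand), a stress-responsive cytosolic protein, stood at 10.0, 7.84, 14.1 and 14.2 CPM in SS and at 97.5, 94.2, 80.0 and 79.3 CPM in MI. The MI libraries lay close together and far above SS, with a log2 change of 2.93 (SE 0.22, adjusted p = 4.62e-11). Vegfa (chr17:46016993-46032369, minus strand), the main growth factor for vessels, stood at 2.19, 6.57, 3.47 and 8.64 CPM in SS and 40.0, 99.2, 51.9 and 45.5 CPM in MI. No libraries overlapped, MI replicate 2 was the highest, and the log2 change was 3.50 (SE 0.48, adjusted p = 1.98e-05). Ero1l stood at 36.5, 32.0, 36.3 and 33.2 CPM in SS and 71.3, 70.7, 74.7 and 58.9 CPM in MI, again with no overlap (log2 1.00, SE 0.15, adjusted p = 3.86e-05). Bnip3 rose 1.55-fold, from 45.3, 52.0, 44.3 and 43.6 CPM to 68.0, 83.2, 75.1 and 60.5 CPM (adjusted p = 0.00552), with all MI libraries above SS. The median log2 change over the 12 targets was 0.06.

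**Figure D2:**
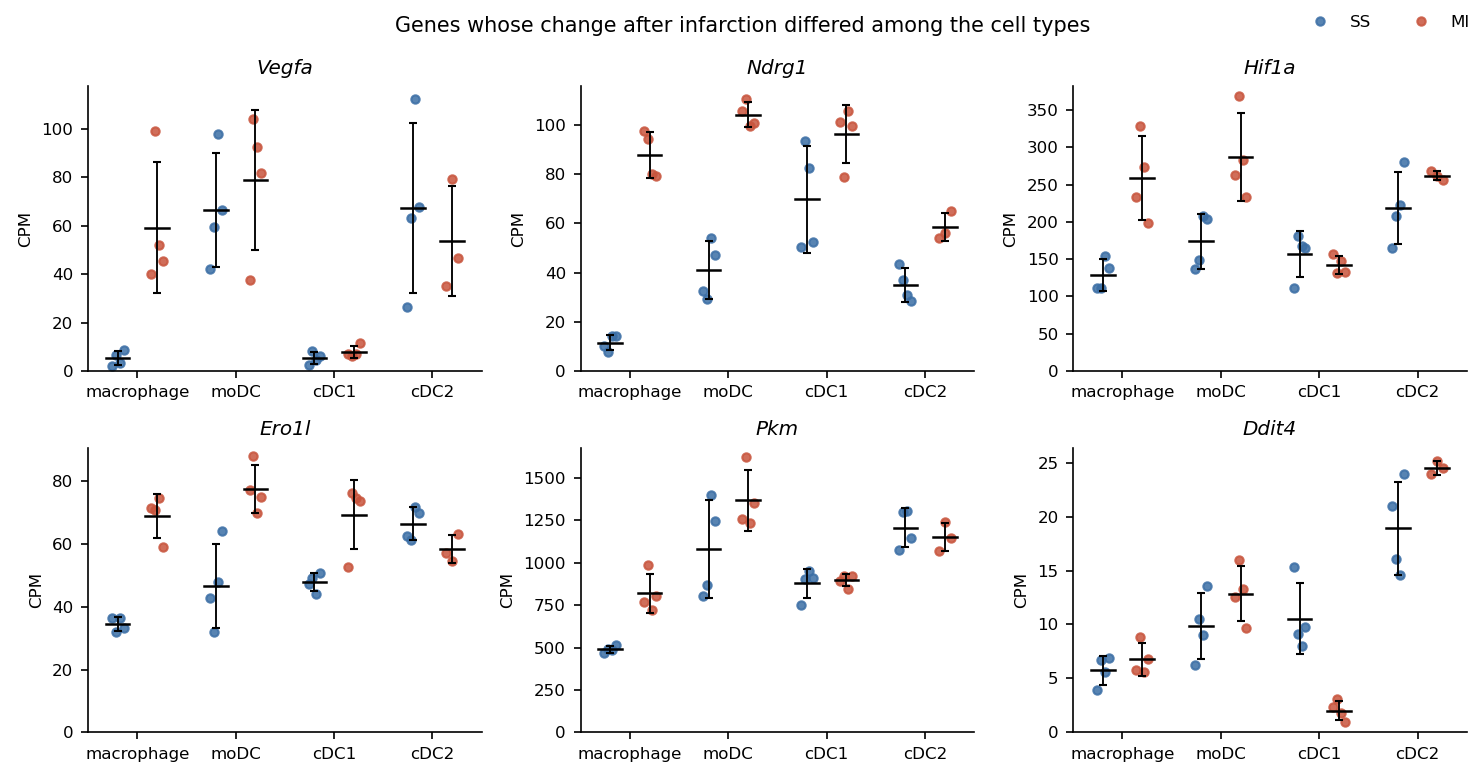
CPM of Vegfa, Ndrg1, Hif1a, Ero1l, Pkm and Ddit4 in each of the 31 libraries, by cell type, SS beside MI, with the group mean and SD. In macrophages the MI points of the first 5 genes lie above all SS points, as for Ndrg1 at 79.3 to 97.5 against 7.84 to 14.2 CPM, and Ddit4 separates in cDC1, at 0.922 to 3.06 in MI against 8.04 to 15.3 CPM in SS.

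Marker sums of other cell types differed in the same macrophage libraries. The summed CPM of 11 macrophage markers averaged 18488 in SS (range 16316 to 21286) and 14856 in MI (13545 to 17209). That of 6 monocyte markers averaged 2805 (2313 to 3354) and 3579 (3256 to 3803), and that of 5 dendritic cell markers 15.2 (10.3 to 19.3) and 55.5 (37.6 to 82.6). Single genes went both ways within each of these sums. Of the monocyte markers, Ccr2 averaged 420 CPM in SS and 2124 in MI, but F13a1 2360 and 1389. Of the macrophage markers, Fcgr1 (223 and 322), Mertk (37.6 and 57.3), Adgre1 (1308 and 1521) and Cd68 (716 and 730) had higher MI means. The other macrophage markers had lower ones. Of the dendritic cell markers, Zbtb46 (4.17 and 2.55) and Kit (0.955 and 0.120) had lower MI means, and Itgax, Flt3 and Dpp4 higher ones. In MI moDC, the dendritic sum averaged 629 while Vegfa averaged 79.0 CPM, against 59.1 in MI macrophages. The sum of 11 cardiomyocyte markers averaged 201 in SS (155 to 234) and 92.1 in MI macrophages (55.0 to 139.8), with no overlap. The part of these markers in the changes of the 35 genes was not tested. The 7 calls of Ndrg1, Vegfa, Ero1l, Hif1a, Pkm, Pgam1 and Bnip3 held whichever single library was left out. Without MI replicate 2, which is the highest MI library for 11 of the 17 enzymes, 9 genes were called and Aldoa, Egln1, Gapdh, Ldha, Pfkfb4, Pfkl, Pgk1 and Tpi1 no longer passed. Without SS replicate 3, 10 were called. Other single libraries ended 3 to 6 calls each, from among the same genes and Eno1 and Hk3. Against SS libraries 1 and 4 alone 11 genes were called, and against 2 and 3 alone 12. Pgam1 did not pass against 2 and 3 (adjusted p = 0.0750).

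In moDC, 5 of the 35 genes rose after MI and the other 30 did not pass in edgeR (at an unadjusted p under 0.05, 11 were higher and 1 lower, and DESeq2 called 6 higher and 0 lower). Of all tested genes 4.84% were called, 1.52% higher and 3.32% lower in MI. The 5 were Ndrg1, Ero1l, Bnip3, Hif1a and Pgam1, each of which also rose in macrophages, and all 5 had no overlap between SS and MI. Neither such shared calls nor such separation was counted over all tested genes, so both are descriptions only. The median log2 change over the 35 genes was 0.16.

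Ndrg1 stood at 32.6, 29.4, 54.1 and 47.3 CPM in SS moDC and 106, 111, 99.5 and 101 CPM in MI moDC. It rose 2.55-fold (log2 1.35, SE 0.20, adjusted p = 3.84e-05). Its SS libraries were already above those of macrophages, and its MI level was close to theirs. Ero1l stood at 42.8, 32.0, 47.9 and 64.1 CPM in SS and 77.0, 87.8, 69.7 and 75.02 CPM in MI, a rise of 1.66-fold (adjusted p = 0.00234). Bnip3 (chr7:138890836-138909519, minus strand) stood at 41.4, 55.3, 46.3 and 38.0 CPM in SS and 72.0, 95.4, 68.9 and 59.1 CPM in MI, a rise of 1.63-fold (adjusted p = 0.00267). In both genes the highest SS library came close to the lowest MI library without reaching it.

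Hif1a stood at 137, 149, 208 and 204 CPM in SS moDC and 263, 369, 283 and 233 CPM in MI moDC, and rose 1.65-fold (adjusted p = 0.0104). Pgam1 stood at 294, 291, 464 and 401 CPM in SS and 525, 637, 482 and 518 CPM in MI, and rose 1.49-fold (adjusted p = 0.0113). For both, SS libraries 3 and 4 were higher than 1 and 2. Other enzymes had MI means above SS without passing: Tpi1 averaged 328 ± 55.7 and 433 ± 37.1 CPM with no overlap (adjusted p = 0.0612), and Pkm 1079 ± 289 and 1366 ± 177 (adjusted p = 0.142). Vegfa, high in both states, averaged 66.5 ± 23.4 CPM in SS and 79.0 ± 28.9 in MI (adjusted p = 0.836). Pdk1 averaged 10.5 ± 0.865 and 18.4 ± 5.66 CPM, with no overlap and an adjusted p of 0.117.

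The SS moDC libraries were not alike. Their summed CPM of the 17 enzymes was 4194, 4512, 6259 and 5884, and their summed CPM of the 11 macrophage markers was 11199.5, 14234, 6844 and 8279. The libraries with the lower enzyme sums, 1 and 2, thus had the higher macrophage marker sums. Libraries 3 and 4 had the higher sums of monocyte markers (1917, 1858, 2959 and 2332) and dendritic cell markers (392, 255, 539 and 479). Sums of neutrophil markers (157, 197, 466 and 282), cDC2 markers and T and NK cell markers were also higher in 3 and 4. Mural and cDC1 marker sums were lower there, and not every list split this way. In MI moDC the macrophage sum averaged 6941 CPM against 10139.5 in SS, and the sum of 8 mural markers 15.7 against 142. Of the macrophage markers, Fcgr1 (238 against 180), Cd68 (930 against 850) and Timd4 (20.5 against 19.6) had higher MI means, and the others lower ones. The cardiomyocyte sum averaged 26.3 in MI (13.9 to 36.0) against 131 in SS (74.6 to 206), and the endothelial sum 61.5 against 179, both with no overlap. The cardiomyocyte marker Ryr2 was at 0 in MI moDC. The sum of 6 neutrophil markers averaged 132 in MI (124 to 139) against 276 in SS (157 to 466). The part of these cells in the moDC changes was not tested. Calls of Hif1a and Pgam1 were lost without MI replicate 2, SS replicate 1 or SS replicate 2 (adjusted p up to 0.0629 and 0.0717), which left 3 calls each time, and 9 genes were called without SS replicate 3. Against SS libraries 1 and 4 alone 3 genes were called (Ero1l and Hif1a did not pass), and against 2 and 3 alone 4 (Bnip3 did not pass).

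In cDC1, falls outnumbered rises. Of the 12 hypoxia targets 5 fell after MI and 1, Ero1l, rose, while no enzyme, transporter or oxygen sensing gene passed in edgeR. At an unadjusted p under 0.05, 5 of the 17 enzymes were lower and 1 higher, as was 1 oxygen sensing gene, and DESeq2 called 1 enzyme lower. Of all tested genes 8.88% were called, 6.73% lower and 2.16% higher in MI. Of the 35 genes 6 were called, 25 had a log2 change below 0, and the median was -0.16. In 8 genes all MI libraries lay below all SS libraries and in 1 they lay above, again without a count over all tested genes to set beside it.

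Ddit4 (chr10:59949669-59951834, minus strand), an inhibitor of mTOR signalling that is induced by hypoxia and glucocorticoids, stood at 15.3, 9.10, 8.04 and 9.74 CPM in SS cDC1 and at 2.36, 3.06, 1.76 and 0.922 CPM in MI cDC1. All MI libraries were below all SS libraries, and Ddit4 fell 5.20-fold (log2 -2.38, SE 0.32, adjusted p = 4.18e-06). P4ha1 (chr10:59323296-59373304, plus strand), a catalytic subunit of collagen prolyl hydroxylase, stood at 86.4, 94.6, 81.3 and 99.2 CPM in SS and 43.2, 58.6, 61.2 and 60.0 CPM in MI. It fell 1.62-fold with no overlap (log2 -0.70, SE 0.16, adjusted p = 0.00360). Mxi1, an antagonist of MYC, stood at 86.4, 107, 106 and 84.3 CPM in SS and 70.4, 66.1, 66.5 and 79.0 CPM in MI, and fell 1.36-fold with no overlap (adjusted p = 0.0413). Ero1l went the other way, from 47.1, 49.3, 44.0 and 50.7 CPM to 52.7, 76.1, 74.4 and 73.6 CPM, a rise of 1.45-fold (adjusted p = 0.0195). Its lowest MI library was only just above the highest SS library.

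The remaining falls were in genes that cDC1 barely held. P4ha2, another collagen prolyl hydroxylase subunit, stood at 0, 0.474, 2.68 and 0.292 CPM in SS, which is 35 reads in all, and at 0 reads in MI, at least 9.68-fold lower against a floor of 3 reads over the group (adjusted p = 0.0158). Adm, the vasodilator peptide adrenomedullin, stood at 0, 3.98, 6.25 and 1.27 CPM in SS and 0, 0.591, 0 and 0 CPM in MI. Its 118 SS reads against 6 MI reads, per read in genes, give a ratio of 16.3 with an exact 95% interval of 7.28 to 45.4 that covers counting error only (adjusted p = 0.0183). In both genes SS replicate 3 was the highest library and SS replicate 1 was at 0, so the groups overlapped. Without SS replicate 3, Adm was 10.9-fold lower and no longer passed (adjusted p = 0.0697), nor did P4ha2 (0.116).

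Markers of heart tissue cells were lower in MI in the same comparison. The summed CPM of 8 mural markers averaged 175 in SS cDC1 (range 90.5 to 323) and 2.08 in MI (0.717 to 2.96), with Myh11, Cspg4 and Kcnj8 at 0 in MI. That of 8 endothelial markers averaged 106 (44.4 to 213) and 7.42 (5.62 to 9.77), with Tie1, Tek and Cldn5 at 0 in MI, and that of 7 fibroblast markers 25.4 and 1.93. Collagen prolyl hydroxylases and adrenomedullin are also known from such cells. The part of these markers in the falls was not tested. Only the calls of Ddit4 and P4ha1 held whichever single library was left out. Ero1l lost its call without any of 4 libraries (adjusted p up to 0.0696) and Mxi1 without any of 5 (up to 0.130), and the count went to 2 without SS replicate 3 and to 3 without MI replicate 3. Against SS libraries 1 and 4 alone 3 genes were called, and against 2 and 3 alone 5. Against 2 and 3 P4ha1 had an adjusted p of 0.0502.

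In cDC2, 3 of the 35 genes rose after MI and 1 fell, in a comparison where 11.0% of all tested genes were called, 4.41% higher and 6.63% lower in MI. The share of these genes called was therefore close to that of all genes, and their median log2 change was -0.05. Pdk1 (chr2:71873224-71903858, plus strand) stood at 12.9, 5.75, 9.41 and 6.55 CPM in SS and 15.2, 29.9 and 24.2 CPM in MI. It rose 2.66-fold with no overlap (log2 1.41, SE 0.32, adjusted p = 0.00282). Hk3 stood at 34.1, 53.8, 51.3 and 32.2 CPM in SS and 26.9, 18.4 and 25.9 CPM in MI, and fell 1.80-fold with no overlap (adjusted p = 0.0111). Ndrg1 went from 43.5, 37.2, 30.9 and 28.3 CPM to 54.1, 56.2 and 65.2 CPM, 1.67-fold higher (adjusted p = 0.0194). Bnip3 went from 30.6, 36.0, 37.0 and 29.2 CPM to 44.1, 49.1 and 52.9 CPM, 1.47-fold higher (adjusted p = 0.0191). Neither gene had an MI library within the SS range. Vegfa averaged 67.4 ± 35.2 CPM in SS and 53.7 ± 22.9 in MI (adjusted p = 0.724), with wide and overlapping groups. Only the call of Pdk1 held whichever single library was left out, and 2 calls were left without MI replicate 2, MI replicate 3 or SS replicate 4. The sum of 6 neutrophil markers averaged 128 CPM in SS and 28.8 in MI cDC2, and that of macrophage markers 2654 and 1591. Of the macrophage markers, Fcgr1 (36.9 and 84.2) and Timd4 (28.5 and 105) had higher MI means, and the others lower ones. The part of these markers in the changes was not tested.

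No gene was called in all 4 cell types. Bnip3, Ndrg1 and Ero1l were called in 3, Hk3, Pgam1 and Hif1a in 2, and 17 genes in 1. Such counts were not made over all tested genes, so these numbers are descriptions only. The 12 genes called in none were Hk1, Hk2, Gpi1, Pfkp, Pfkfb3, Aldoc, Slc2a1, Slc16a3, Egln3, Bnip3l, Ankrd37 and Kdm3a. Bnip3l, a mitophagy receptor related to Bnip3, had group means of 154 to 245 CPM over the 8 groups, and Kdm3a, a histone lysine demethylase, 19.6 to 31.9 CPM. Ankrd37, a short ankyrin repeat gene, was sparse, at 1.22 to 5.80 CPM.

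Whether the MI effect differed among the cell types was tested directly, with an F test on the interaction terms. It passed for 8 of the 35 genes, against 6.80% of all tested genes: Ndrg1 (adjusted p = 2.40e-06), Ddit4 (5.34e-05), Vegfa (0.00106), Ero1l (0.00332), Hif1a (0.0101), Tpi1 (0.0134), Pkm (0.0170) and Pgk1 (0.0240). For Vegfa, the log2 effect of MI minus that in macrophages was -3.25 (SE 0.63, adjusted p = 0.0148) in moDC, -2.88 (0.0103) in cDC1 and -3.83 (6.23e-04) in cDC2. The Vegfa rise was thus larger in macrophages than in each of the other sorts. For Ndrg1, these differences from macrophages were -1.57 (SE 0.29, adjusted p = 0.00704) for moDC, -2.18 (1.41e-05) for cDC2 and -2.46 (1.26e-06) for cDC1. For Ddit4 it was cDC1 that stood apart, with log2 differences of -2.61 from macrophages (adjusted p = 2.27e-04), -2.77 from moDC (1.54e-04) and -2.75 from cDC2 (1.13e-04).

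The other 5 genes differed between fewer pairs. Ero1l, which rose in 3 sorts, stood at 62.6, 61.2, 71.8 and 69.9 CPM in SS cDC2 and 57.0, 54.5 and 63.2 CPM in MI cDC2, and its effect in cDC2 was below that in macrophages (log2 difference -1.19, adjusted p = 9.21e-04) and in moDC (-0.92, 0.0315). Hif1a stood at 111, 181, 168 and 165 CPM in SS cDC1 and 156, 132, 147 and 133 CPM in MI cDC1, and its effect there was below that in macrophages by a log2 difference of -1.14 (adjusted p = 0.00496). The difference of Hif1a between cDC1 and moDC did not pass (-0.86, adjusted p = 0.0696). Tpi1 in cDC1 went from 199.8, 232, 258 and 239 CPM to 188, 195, 187 and 197 CPM, where the change itself did not pass (adjusted p = 0.200) but its difference from macrophages (-0.80, 0.00669) and moDC (-0.68, 0.0399) did. Pkm differed between macrophages and both conventional types (cDC1 -0.71, 0.0215, and cDC2 -0.81, 0.0101), and Pgk1 between cDC2 and macrophages (-0.98, 0.00893). The F test of Pgk1 was lost without MI cDC2 replicate 1, MI macrophage replicate 2 or SS macrophage replicate 1 (adjusted p up to 0.0657), and that of Pkm without MI macrophage replicate 2 (0.0551). Against SS libraries 1 and 4 alone 4 genes passed and against 2 and 3 alone 9. Vegfa and Hif1a did not pass against 1 and 4 (adjusted p = 0.102 and 0.166).

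**Figure D3:**
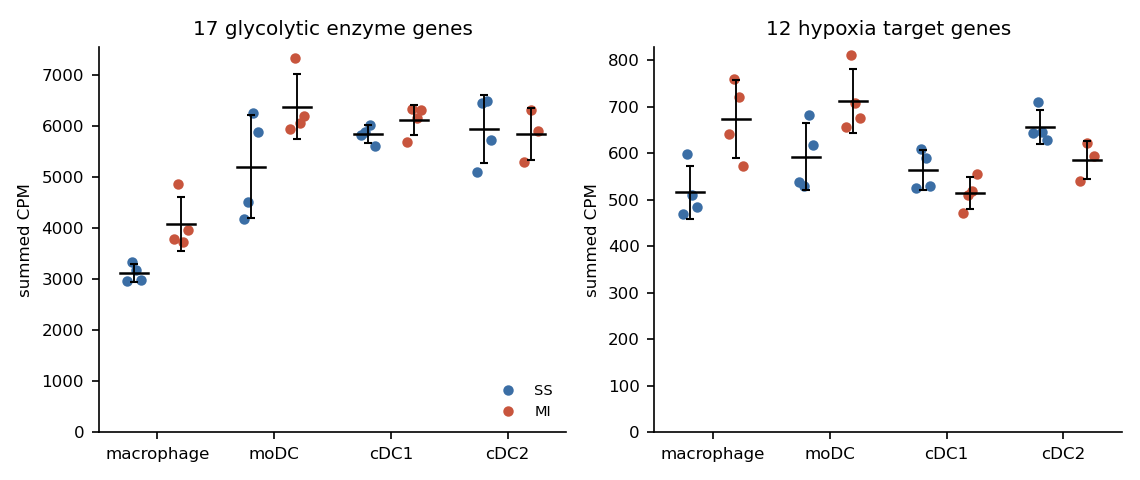
Summed CPM of the 17 glycolytic enzymes and of the 12 hypoxia targets in each library, by cell type and state, with the group mean and SD. The enzyme sum of SS macrophages, 3122 ± 177 CPM, is the lowest of the 8 groups, and MI macrophages stand at 4088 ± 532 CPM.

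As a measure of the whole list, the 17 enzymes took 2971, 3348, 3179 and 2991 CPM in the SS macrophage libraries and 3784, 4872, 3734 and 3964 CPM in the MI macrophage libraries, with no overlap. In moDC the sum was 5212 ± 1013 CPM in SS and 6387 ± 642 in MI, in cDC1 5841 ± 176 and 6127 ± 295, and in cDC2 5948 ± 661 and 5843 ± 511. The sum of the 12 targets was 516 ± 57.3 and 673 ± 82.8 CPM in macrophages, 592 ± 71.8 and 713 ± 68.7 in moDC, 563 ± 43.0 and 514 ± 34.6 in cDC1, and 656 ± 36.5 and 585 ± 41.4 in cDC2. These sums are descriptions and were not tested. They are weighted by the few most abundant genes of each list.

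Even without infarction, the cell types differed in these genes, and SS macrophages had the lowest mean for 20 of the 35. Such ranks were not counted over all tested genes. In SS, 15 genes were higher in moDC than in macrophages and none was lower, against 12.9% of all tested genes called, 8.56% higher and 4.34% lower. At an unadjusted p under 0.05 edgeR gave 21 higher and 0 lower, and DESeq2 called 16 higher and 0 lower. Of the enzymes, 11 of 17 were higher in moDC. cDC2 against macrophages gave 21 genes higher and 5 lower (35.2% of all genes called, 19.1% higher and 16.2% lower). cDC1 against macrophages gave 15 higher and 7 lower (42.8%, 20.9% higher and 21.9% lower), and cDC1 against cDC2 gave 5 higher and 14 lower (28.2%, 11.7% higher and 16.4% lower). cDC1 against moDC gave 7 higher and 9 lower (33.3%, 14.4% higher and 18.9% lower), and cDC2 against moDC 8 higher and 3 lower (15.4%, 7.35% higher and 8.05% lower). These 6 comparisons share libraries, and each group enters 3 of them. The median log2 difference over the 35 genes was 0.75 for cDC2 and 0.60 for moDC over macrophages. Leaving out 1 library moved the count of cDC2 against moDC to 5 without SS moDC replicate 1 or 2, and to 7 without SS cDC2 replicate 2 or 4.

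Among the largest contrasts between cell types in SS were those of single isozymes and of the lactate exporter. Pfkp, the platelet-type subunit of phosphofructokinase, stood at 435, 522, 452 and 447 CPM in SS cDC1, 174, 199.5, 253 and 269.9 in cDC2, 94.7, 92.4, 174 and 186 in moDC and 59.3, 49.9, 44.8 and 63.7 in macrophages. Each step of that order passed, with cDC1 2.07-fold above cDC2 (adjusted p = 8.41e-06), cDC2 1.64-fold above moDC (0.00327) and moDC 2.51-fold above macrophages (1.20e-06). Aldoc, the brain-type aldolase (chr11:78322968-78327781, plus strand), followed the same order, with 99.8, 54.6, 62.6 and 60.1 CPM in cDC1, 30.1, 45.2, 40.9 and 41.9 in cDC2, 15.0, 12.8, 16.8 and 15.1 in moDC and 4.67, 7.45, 3.27 and 4.08 in macrophages. Again each neighbour differed (adjusted p = 0.0110, 1.32e-04 and 4.67e-05), and cDC1 was 14.2-fold above macrophages. Ldha stood at 1738, 1502, 1498 and 1469.8 CPM in cDC1, 1056, 1505, 1389 and 1261 in cDC2, 639, 729.8, 1162 and 981 in moDC and 384, 585, 529 and 418 in macrophages. For Ldha the cDC1 and cDC2 levels did not differ beyond their spread (adjusted p = 0.262), and cDC1 was 3.24-fold above macrophages (2.83e-10).

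Pfkfb4 ran in the reverse order. It stood at 154, 182, 163 and 133 CPM in SS macrophages, 121, 156, 112 and 135 in moDC, 93.8, 77.0, 68.3 and 71.9 in cDC2 and 19.6, 13.6, 18.8 and 20.0 in cDC1. Macrophages and moDC did not differ beyond their spread (adjusted p = 0.385), while macrophages were 8.77-fold above cDC1 (9.25e-15). Hk3 likewise was higher in macrophages and moDC (88.6 ± 19.9 and 84.0 ± 20.1 CPM) than in cDC1 (41.9 ± 7.64), where the macrophage level was 2.12-fold higher (adjusted p = 4.94e-05). Slc16a3 (chr11:120948480-120960868, plus strand) stood at 317, 283, 181 and 154 CPM in cDC2, 72.1, 67.8, 272 and 139 in moDC, 30.7, 36.5, 48.7 and 61.1 in macrophages and 15.6, 23.4, 23.0 and 19.8 in cDC1. It varied widely within cDC2 and moDC, which did not differ beyond that spread (adjusted p = 0.180), and cDC2 was 11.4-fold above cDC1 (1.47e-07). Slc2a1 was highest in cDC2, at 159.7 ± 24.7 CPM against 52.2 ± 7.71 in macrophages (3.06-fold, adjusted p = 3.71e-08).

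**Figure D4:**
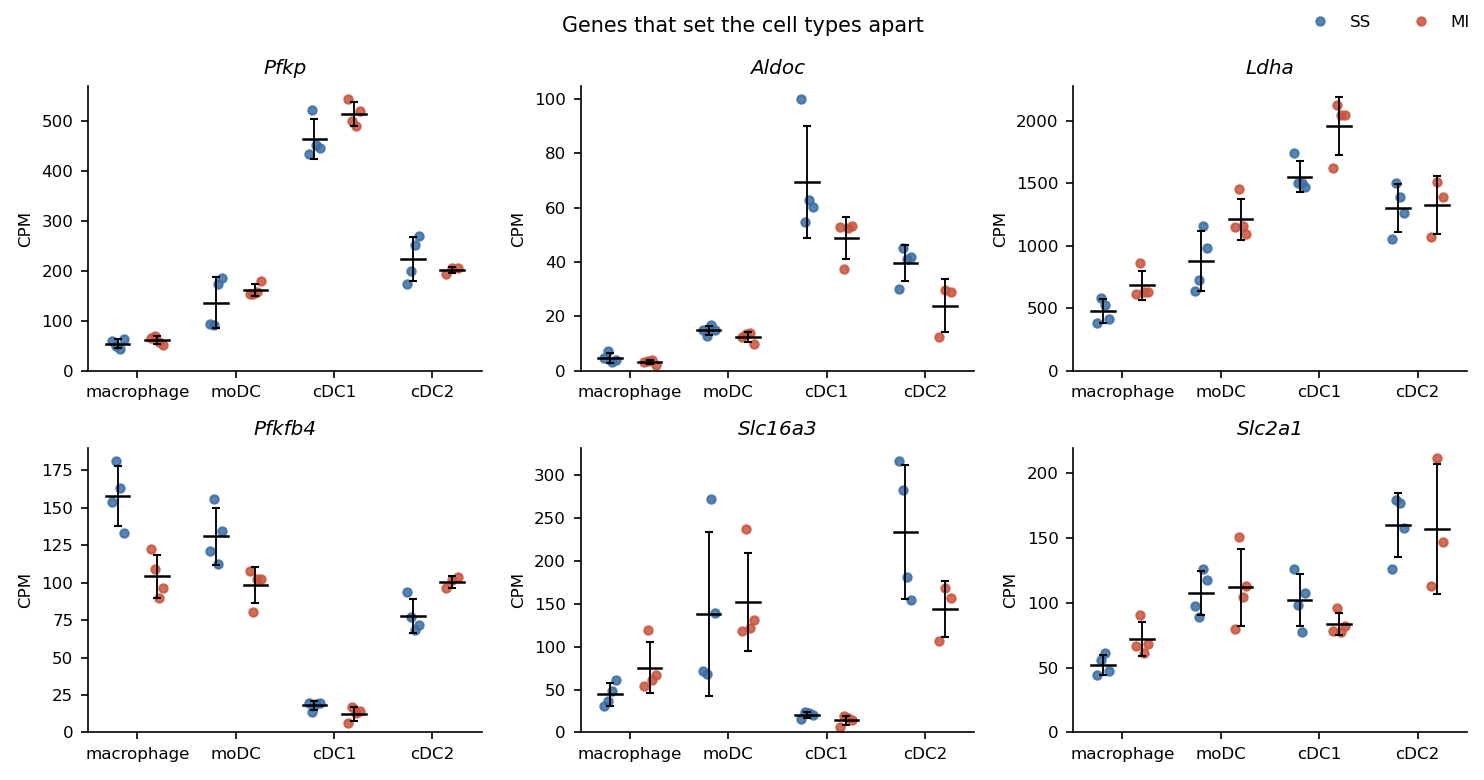
CPM of Pfkp, Aldoc, Ldha, Pfkfb4, Slc16a3 and Slc2a1 in each library, by cell type, SS beside MI, with the group mean and SD. Pfkp, Aldoc and Ldha are highest in cDC1, where Pfkfb4 (13.6 to 20.0 CPM in SS) and Slc16a3 (20.5 ± 3.61) are lowest.

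Among the hypoxia targets in SS, Vegfa stood at 26.4, 63.2, 112 and 67.7 CPM in cDC2 and 42.0, 59.5, 97.9 and 66.6 in moDC, against 2.28, 8.15, 4.56 and 6.14 in cDC1 and 2.19, 6.57, 3.47 and 8.64 in macrophages. The first pair of groups lay far above the second with no overlap, and cDC2 was 12.9-fold above macrophages (adjusted p = 7.80e-07). Ndrg1 was highest in cDC1, at 50.3, 93.6, 82.4 and 52.5 CPM, 6.04-fold above macrophages (adjusted p = 6.14e-12). After MI these orders changed. MI macrophages did not differ beyond the spread from MI moDC in Vegfa (adjusted p = 0.612) or Ndrg1 (0.491), nor from MI cDC2 in Vegfa (0.875), nor from MI cDC1 in Ndrg1 (0.614). Vegfa was low in MI cDC1, at 6.99, 6.21, 7.05 and 11.7 CPM, 7.40-fold below MI macrophages (adjusted p = 8.84e-06).

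In MI, moDC had the highest mean for 14 of the 35 genes, and cDC1 the lowest for 18, while macrophages had the lowest for 11. These ranks too were not counted over all tested genes. moDC against macrophages gave 12 genes higher and none lower (10.8% of all tested genes called, 6.65% higher and 4.17% lower), 10 of them enzymes. Unadjusted, edgeR gave 15 higher and 0 lower, and DESeq2 called 12 higher and 0 lower. cDC1 against macrophages gave 6 higher and 14 lower (45.4% of all genes called, 21.0% higher and 24.5% lower). All 6 were enzymes, and of the 12 hypoxia targets 6 were lower in cDC1 and 0 higher (7 and 0 unadjusted in edgeR, 7 and 0 called by DESeq2), where SS had 4 higher and 3 lower. cDC1 against moDC gave 4 higher and 17 lower (36.0%, 15.0% higher and 21.0% lower), and cDC1 against cDC2 gave 5 higher and 15 lower (26.8%, 10.6% higher and 16.2% lower). cDC2 against macrophages gave 12 higher and 6 lower (26.4%, 13.8% higher and 12.6% lower), and cDC2 against moDC 1 higher and 3 lower (10.1%, 4.49% higher and 5.66% lower). Without MI cDC2 replicate 2 the last pair had 2 genes called and cDC2 against macrophages 11. Counts in SS and in MI were not tested against each other.

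Levels of different enzymes can be compared only per length, here as mean CPM per kb of merged exons. In SS macrophages Gapdh (273), Ldha (253) and Pkm (188) led on this scale, and Aldoc (1.64) was lowest. In SS cDC1 the order was Ldha (819), Gapdh (384) and Pkm (338). Expressed as shares of their family's CPM per kb, the isozymes differed by cell type. Pfkp made up 80.6% ± 3.70 (SD) of phosphofructokinase transcripts in SS cDC1, 68.2% ± 1.34 in cDC2, 51.0% ± 5.43 in moDC and 38.6% ± 5.31 in macrophages, the rest being Pfkl and Pfkm. Pfkfb3 made up 76.5% ± 4.22 of the summed Pfkfb3 and Pfkfb4 level in SS cDC1 but 23.7% ± 2.71 in macrophages, 23.8% ± 4.95 in moDC and 31.8% ± 1.22 in cDC2. Hk3 made up 60.9% ± 12.2 of hexokinase transcripts in SS macrophages and 46.9% ± 9.61 in MI macrophages, and 39.7% ± 9.48 in SS and 25.2% ± 5.34 in MI cDC2. The Hk3 share had a lower mean in MI than in SS in each cell type. No share was tested.

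**Figure D5:**
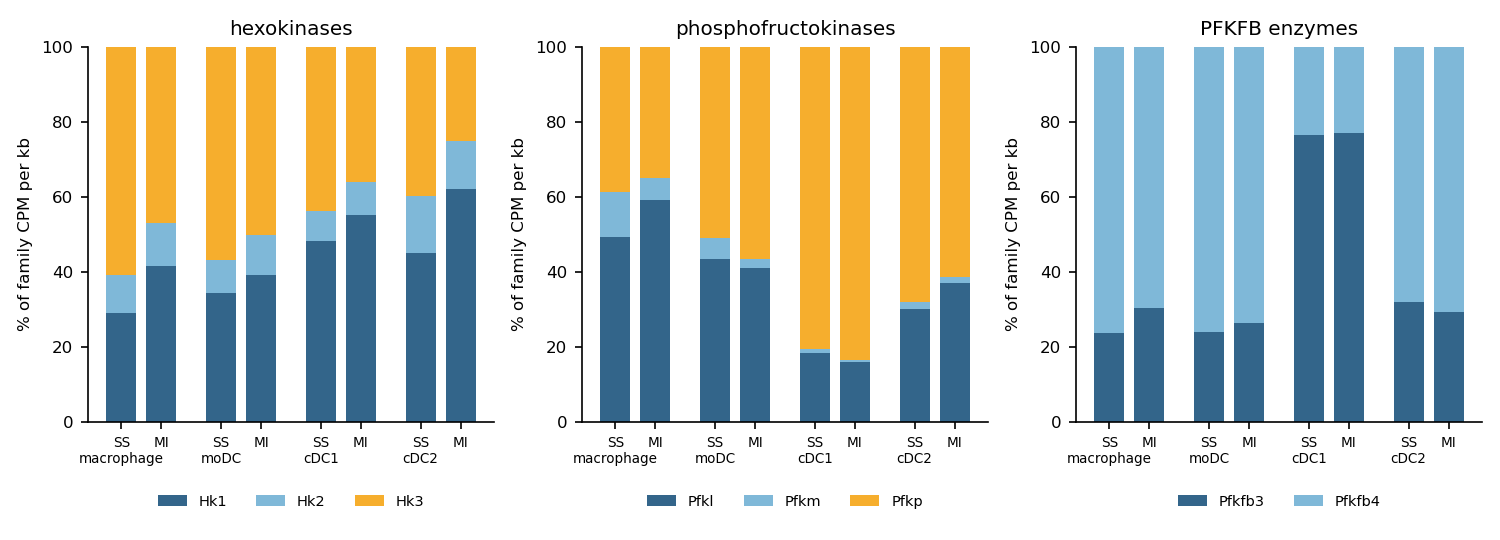
Share of each isozyme in the CPM per kb of its family (hexokinases, phosphofructokinases, and Pfkfb3 with Pfkfb4 as PFKFB enzymes), as the mean over libraries of each group, in percent. Pfkp and Pfkfb3 take the larger part of their families in cDC1, at 80.6% and 76.5% in SS.

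Further genes of these pathways, which are not among the 35, were counted in the same comparisons. The share of all tested genes called, against which the counts are to be read, was 7.39% in macrophages, 4.84% in moDC, 8.88% in cDC1 and 11.0% in cDC2. Of 27 tested other glycolysis genes, 2 rose in MI macrophages: the glycogen phosphorylase Pygl (16.9 ± 4.49 to 52.2 ± 6.06 CPM, 3.09-fold, adjusted p = 0.00144) and the sugar transporter Slc2a6 (2.40-fold, 0.00732). None passed in moDC in edgeR, where 1 was higher and 4 were lower at an unadjusted p under 0.05 and DESeq2 called 3 lower. In cDC1, 4 fell and 1 rose. The lactate dehydrogenase subunit Ldhb fell 5.62-fold at a low level, from 3.37 ± 1.50 to 0.596 ± 0.281 CPM (adjusted p = 1.02e-04). Ldha, by far the more abundant subunit, averaged 1552 CPM in SS and 1957 in MI cDC1 and did not pass. The glucose transporter Slc2a3 fell 2.92-fold (adjusted p = 0.00206). In cDC2, 5 fell and none rose, among them the lactate transporter Slc16a1 (2.26-fold, 0.00510) and Ldhb (9.29 to 3.32 CPM, 2.79-fold, 0.00837). Of 12 tested other HIF pathway genes none passed in edgeR or DESeq2 in macrophages (2 higher at an unadjusted p under 0.05) or moDC (1 higher and 1 lower). Epas1, the other main HIF alpha gene, is also known from endothelial cells. In cDC1 it went from 360 reads to 1 read (ratio 299, exact 95% interval 53.3 to 11827 for counting error). The endothelial and mural marker sums given above were lower as well, and their part in this fall was not tested. Vhl fell 1.57-fold in cDC1 (adjusted p = 0.0141). In cDC2 Egln2 fell 1.38-fold (0.0454).

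Of 34 tested other hypoxia targets, 5 rose and 3 fell in MI macrophages. Cxcr4, the receptor of the chemokine Cxcl12, rose 2.21-fold (60.0 ± 9.10 to 132 ± 11.7 CPM, adjusted p = 5.68e-06), Bhlhe40, a transcriptional repressor, 5.52-fold (7.25e-06) and the cytokine gene Mif 1.85-fold (7.80e-04). None of the 34 passed in edgeR in moDC, where 3 were higher and 3 lower unadjusted and DESeq2 called 2 lower. In cDC1, 1 rose and 7 fell, with Ier3 2.31-fold higher (adjusted p = 2.33e-05) and Hmox1, the haem-degrading oxygenase, 2.56-fold lower (5.69e-04). Pgf, a growth factor related to Vegfa, went from 104 reads to 3 (ratio 28.8, interval 9.57 to 142). In cDC2, 2 rose and 5 fell, and Hmox1 fell 7.18-fold, from 254 ± 75.4 to 35.3 ± 6.04 CPM (adjusted p = 4.05e-08).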

How the data were processed

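cDNA was made from 4 ng of RNA by SMART-Seq v4 and sequenced on a NextSeq500 in single reads of 75 nt, per the labels' protocols. FastQC 0.11.4, Trimmomatic 0.35, TopHat2 2.1.0, SAMtools 0.1.18 and the mm10 genome are named in the submitters' processing notes. The counter, annotation and strand setting were not given in the sources used here. Raw read counts for 24421 gene symbols per sample were deposited by the authors. Reads in no feature (6.42% to 16.9%) and ambiguous reads (0.857% to 1.21%) stayed out of library sizes and tests.

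CPM values were computed here with TMM factors. Tests used edgeR 4.0.16 in R 4.3.3 (quasi-likelihood, robust) in 1 model of 8 group means over 31 libraries, after filterByExpr by group with a minimum count of 10, which kept 13039 genes. A gene could pass that filter through 1 group alone. P-values were adjusted by Benjamini-Hochberg over these genes, with a threshold of 0.05. The common dispersion was 0.116. The script was tested on simulated counts. Members and gene lists were chosen with earlier results of these data known.

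Values in every library are given for at most 6 genes per MI comparison, and for the F test, by smallest adjusted p, and for the 6 genes of largest ratio between cell types in SS with at least 10 CPM. Of the further pathway lists, up to 3 called genes per list and comparison are named, by smallest adjusted p. Some further values were added after they were seen. Alternatives were DESeq2 1.42.0, RLE and upper-quartile factors, no filter, fits of the compared groups alone, a replicate block, SS libraries split by replicate number and each library left out. The rows Eno1 and Eno1b were summed as an alternative chosen after seeing the data. Gene positions are from GENCODE M21 (GRCm38) by symbol, promoter windows from RefSeq GRCm38.p6. Counting intervals (95%) and floors of 3 reads cover counting error only.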

Additional observations from a re-analysis of the deposited data

Results flagged for a closer look

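In groups of 4 libraries, 21 genes and sums were checked in 7 groups for 1 library that lies apart from the other 3, by the gap to its nearest neighbour over the whole range. Chance alone marks about 1 in 20 such groups. Of the 147 checks, 10 marked a library. In MI cDC1 these were replicate 4 for Vegfa (11.7 CPM, others 6.21 to 7.05), replicate 1 for Ero1l (52.7, others 73.6 to 76.1) and for P4ha1 (43.2, others 58.6 to 61.2), and replicate 2 for Adm (0.591, others 0) and Aldoc (37.3, others 52.4 to 53.0). In SS cDC1 they were replicate 4 for Bnip3 (40.9, others 33.7 to 34.6) and replicate 2 for Hk3 (53.3, others 37.1 to 39.5). P4ha1 stood apart in SS macrophage replicate 2 (155, others 111 to 117), Tpi1 in MI macrophage replicate 2 (389.9, others 279 to 287) and Slc16a3 in MI moDC replicate 2 (237, others 118 to 131).

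The MI effect of 8 genes differed among the cell types by the F test on the interaction terms in edgeR, with adjusted p of 2.40e-06 for Ndrg1, 5.34e-05 for Ddit4, 0.00106 for Vegfa, 0.00332 for Ero1l, 0.0101 for Hif1a, 0.0134 for Tpi1, 0.0170 for Pkm and 0.0240 for Pgk1.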

How the results depend on the processing

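No call reversed its direction under any alternative run, and 13 of 40 calls of single genes kept their side of the threshold in every one. Calls lost numbered 1 with RLE factors, 3 with upper-quartile factors, 3 without the filter, 0 with DESeq2, 1 with a replicate block, 5 of 32 with only the compared groups fitted, 17 against SS libraries 1 and 4 alone, 11 against 2 and 3 alone, and 73 of 500 over single libraries left out. Upper-quartile factors turned the balance of all macrophage calls to 396 up and 604 down, from 523 and 440. Counts of the 35 genes moved by over 1.5 times as follows. Against SS libraries 1 and 4 alone they were 11 in macrophages, 3 in moDC and 3 in cDC1 for MI, 4 for the F test, and in SS 9 for cDC1 against cDC2, 10 for cDC1 against moDC, 14 for cDC1 against macrophages and 3 for cDC2 against moDC. Against 2 and 3 alone they were 12 for cDC1 against cDC2 and 4 for cDC2 against moDC in SS. Fitting the compared groups alone gave 4 (SS) and 9 (MI) for cDC2 against moDC, DESeq2 gave 14 for the F test, and a replicate block gave 8 in moDC for MI. Leaving out 1 library gave 9 to 14 in macrophages, 3 to 9 in moDC, 2 to 6 in cDC1, 2 to 4 in cDC2 and 6 to 11 for the F test. Between cell types in SS it gave 16 to 18 (cDC1 against cDC2), 14 to 16 (cDC1 against moDC), 19 to 22 (cDC1 against macrophages), 5 to 12 (cDC2 against moDC), 23 to 26 (cDC2 against macrophages) and 14 to 17 (moDC against macrophages). In MI, in that order, it gave 16 to 20, 20 to 21, 18 to 20, 2 to 5, 11 to 18 and 8 to 14. Fewer samples enter the fits that leave out libraries or other groups, but not those of DESeq2 or the replicate block. Why the counts moved was not tested.

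The deviations of same-numbered libraries correlated by over 0.1 in 0 of 15 pairs between SS and MI, 14 of 24 within SS and 1 of 21 within MI. Libraries of different numbers did so in 3 of 72 pairs within SS. Pairing was to be taken only where every pair was over 0.1, so the numbers were not taken as pairs. With a replicate block, 17 genes were called in macrophages, 8 in moDC (5 without it), 6 in cDC1, 6 in cDC2 and 11 by the F test. With a block within each state, SS gave 22 genes for cDC1 against cDC2 (19 without it), 18 for cDC1 against moDC (16), 27 for cDC2 against macrophages (26) and 16 for moDC against macrophages (15). In MI it gave 22 for cDC1 against cDC2 (20), 22 for cDC1 against moDC (21), 19 for cDC2 against macrophages (18) and 13 for moDC against macrophages (12), and the other 4 counts between cell types did not change. The F test gave 11 (8).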

Other observations

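Genes of the routes beside and after glycolysis were counted against the shares of all tested genes called after MI, which were 7.39% in macrophages, 4.84% in moDC, 8.88% in cDC1 and 11.0% in cDC2. Of 7 tested genes of the pentose phosphate pathway, which branches off glycolysis and makes NADPH, 1 rose in macrophages (Pgd, 1.32-fold, adjusted p = 0.0107 by edgeR), none passed in moDC or cDC1, and 2 fell in cDC2. These were G6pdx, the entry enzyme, which fell 1.52-fold from 297 ± 9.59 to 196 ± 3.06 CPM (9.52e-04), and the transketolase Tkt (1.31-fold, 0.0270). Of 16 tested genes of the tricarboxylic acid cycle, 1 rose in macrophages (Ogdh, 1.36-fold, 0.00708), 1 rose in moDC (Fh1, 1.35-fold, 0.0335) and none passed in cDC1 or cDC2. Of 24 tested oxidative phosphorylation genes, Cox5a rose in macrophages (1.49-fold, 0.00686), the cytochrome gene Cycs fell in cDC2 (1.47-fold, 0.0265), and none passed in moDC or cDC1. The median log2 change of this last list was 0.02 in macrophages, 0.03 in moDC, 0.19 in cDC1 and -0.30 in cDC2, beside -0.03 over all tested genes in each. Where none passed in edgeR, DESeq2 called none as well, and at most 4 genes of a list had an unadjusted p under 0.05 in the same direction.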
